A study of Mus musculus with 7 samples.

Results

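MOL2a was 1 of the clusters of mature oligodendrocytes (MOL) among oligodendrocyte lineage cells sorted from the adult mouse cortex, and its members were the cells that carry this cluster name in the annotation deposited by the authors. It held 792 of the 9291 annotated cells, with 498 in the control dOLCs, 179 in the control vOLCs and 115 in the ectopic vOLCs. The study asked whether oligodendrocytes of ventral origin that take the place of ablated dorsal ones resemble the cells they replace. By their labels all 3 libraries came from the motor and cingulate cortex of P90 mice, while the paper names the neocortex for these cells. The mice were aged 11 to 14 weeks, on a C57BL/6-B6CBA background. All mice carried Emx1-Cre, a recombinase made in the dorsal forebrain, and the Sox10-GFP-TdTom reporter. This reporter marks oligodendrocyte lineage cells red (TdTom) after recombination and green (GFP) otherwise, so that TdTom+ control cells were taken as dorsally derived (dOLCs) and GFP+ control cells as ventrally derived (vOLCs). Ectopic vOLCs were the GFP+ cells of mice that also carried Sox10-GFP-DTA, which makes a toxin in recombined lineage cells and thereby removes dOLCs. The labels give 4 control and 2 ablated mice, but the cells of a library are not assigned to mice, and each condition is 1 library.

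Oligodendrocytes wrap axons in myelin, a membrane rich in cholesterol and galactolipids, and mature ones fall into several transcriptional states. The MOL2 state is marked by Klk6, a secreted serine protease of the kallikrein family that can cleave myelin proteins, and is known from white matter, above all of the spinal cord. The MOL5/6 state, marked by Ptgds (prostaglandin D2 synthase) and Il33, is the main state of the adult cortex.

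MOL2a cells were not the deepest of the mature cells. Their median depth was 3862 UMIs (unique molecules counted) per cell in control dOLCs, 6762 in the control vOLCs and 6050 in ectopic vOLCs, with medians of 1628, 2328 and 2007 genes. The summed UMIs of the cluster were 2018071, 1174079 and 688192, so that the ectopic cells gave the least precise levels. Median mitochondrial shares were close to each other, at 7.36%, 6.603% and 7.48%. Of 9252 barcode sequences, 39 occurred in more than 1 library, and 5 MOL2a cells carried one of these, although no sequence was shared between MOL2a cells of different libraries. Levels are given as CPM, the UMIs of a gene per 1000000 UMIs summed over a cluster's cells in a library, with exact Poisson 95% intervals. Ratios are log2 ratios of these levels with exact conditional binomial 95% intervals. The intervals cover counting error only. With 1 library per condition no difference between conditions has a replicate check, and no test was made. The clusters were themselves built from these genes, so that MOL2a against another cluster is a description as well.

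The share of MOL2a was highest in the control vOLCs and lowest in ectopic vOLCs. It was 8.58% of the control dOLCs (7.87 to 9.33%), 19.4% of the control vOLCs (16.9 to 22.1%) and 4.49% of the ectopic vOLCs (3.72 to 5.36%). These exact binomial intervals did not overlap. MOL2b, the other cluster named MOL2, stood at 4.05%, 0.649% and 4.14%, the middle value resting on 6 cells, and MOL5/6 (clusters MOL5/6a to MOL5/6d joined) stood at 65.1%, 60.7% and 71.9%. In control vOLCs, therefore, almost all cells named MOL2 were MOL2a, whereas in ectopic vOLCs MOL2a and MOL2b had shares with overlapping intervals (3.72 to 5.36% and 3.40 to 4.98%). The make-up of MOL5/6 differed between the libraries. MOL5/6a made up 5.74% of the control dOLC library, 25.6% of the control vOLC library and 35.1% of the ectopic one. In the same order MOL5/6b made up 33.55%, 25.5% and 1.64%, MOL5/6c 15.99%, 5.73% and 2.46%, and MOL5/6d 9.80%, 3.78% and 32.7%. Ratios between conditions in MOL5/6 therefore mix this make-up with differences within its clusters. All cells had been sorted, and the part of the sort or of single mice in these shares was not tested.

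**Figure D1:**
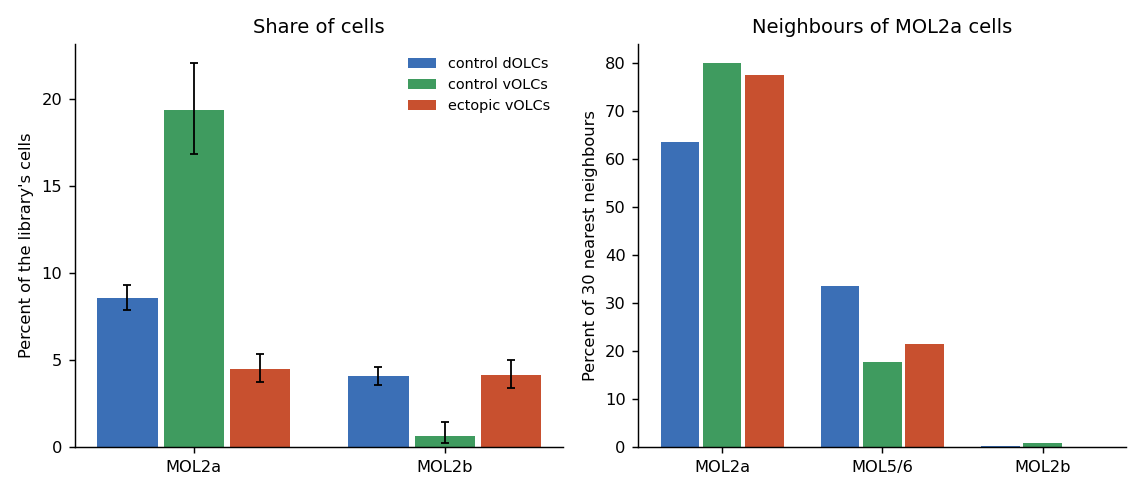
Left, share of each library's cells in MOL2a and MOL2b, in percent, with exact binomial 95% intervals. Right, share of the 30 nearest neighbours of MOL2a cells that belonged to MOL2a, MOL5/6 and MOL2b, averaged over the MOL2a cells of each library. MOL2a was at 8.58%, 19.4% and 4.49%, and MOL2b gave under 1% of the neighbours in each library.

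Klk6, the marker that names the state, was higher in MOL2a than in any other cluster of the same library. Its level in MOL2a was 546 CPM in control dOLCs (514 to 579), 1451 in the control vOLCs (1383 to 1522) and 1412 in ectopic vOLCs (1325 to 1504). In MOL5/6 it was 21.0, 56.2 and 25.2, which put MOL2a higher by log2 ratios of 4.70 (4.52 to 4.89), 4.69 (4.46 to 4.93) and 5.81 (5.61 to 6.01). In control dOLCs the next cluster was MOL2b, at 280 CPM (256 to 307). In control vOLCs, MOL1 (177, 117 to 255) and MOL2b (134, 53.9 to 276) came next and did not differ beyond counting error. In ectopic vOLCs MOL2b followed at 178 (151 to 209).

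Hopx, an atypical homeodomain protein without DNA binding of its own, is the other marker of the cluster. It was at 24.8 CPM in control dOLCs (18.4 to 32.7), 44.3 in the control vOLCs (33.1 to 58.1) and 55.2 in ectopic vOLCs (39.1 to 75.8). Its levels in MOL5/6 were 4.04, 4.11 and 3.22, and the log2 ratios of MOL2a to MOL5/6 were 2.62 (2.04 to 3.18), 3.43 (2.51 to 4.47) and 4.10 (3.40 to 4.81). With the 4 MOL5/6 clusters weighted equally the ectopic ratio was 3.27, so that the order of the libraries depends on the make-up of MOL5/6. Hopx did not mark MOL2a alone. In MOL2b it was higher than in MOL2a in control dOLCs, at 49.7 (39.6 to 61.6). In ectopic vOLCs both clusters were close, with MOL2b at 41.7 (29.2 to 57.7). In MFOLb, a cluster of myelin-forming cells, Hopx was at 26.0 to 38.7. The highest of these values, in control vOLCs, rested on 2 UMIs in 8 cells (4.69 to 140), and the 6 MOL2b cells there had no UMI. Both markers were thus higher than in MOL5/6 in each library, which describes the cluster and is no independent check of its name, since the clusters were built from these genes.

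**Figure D2:**
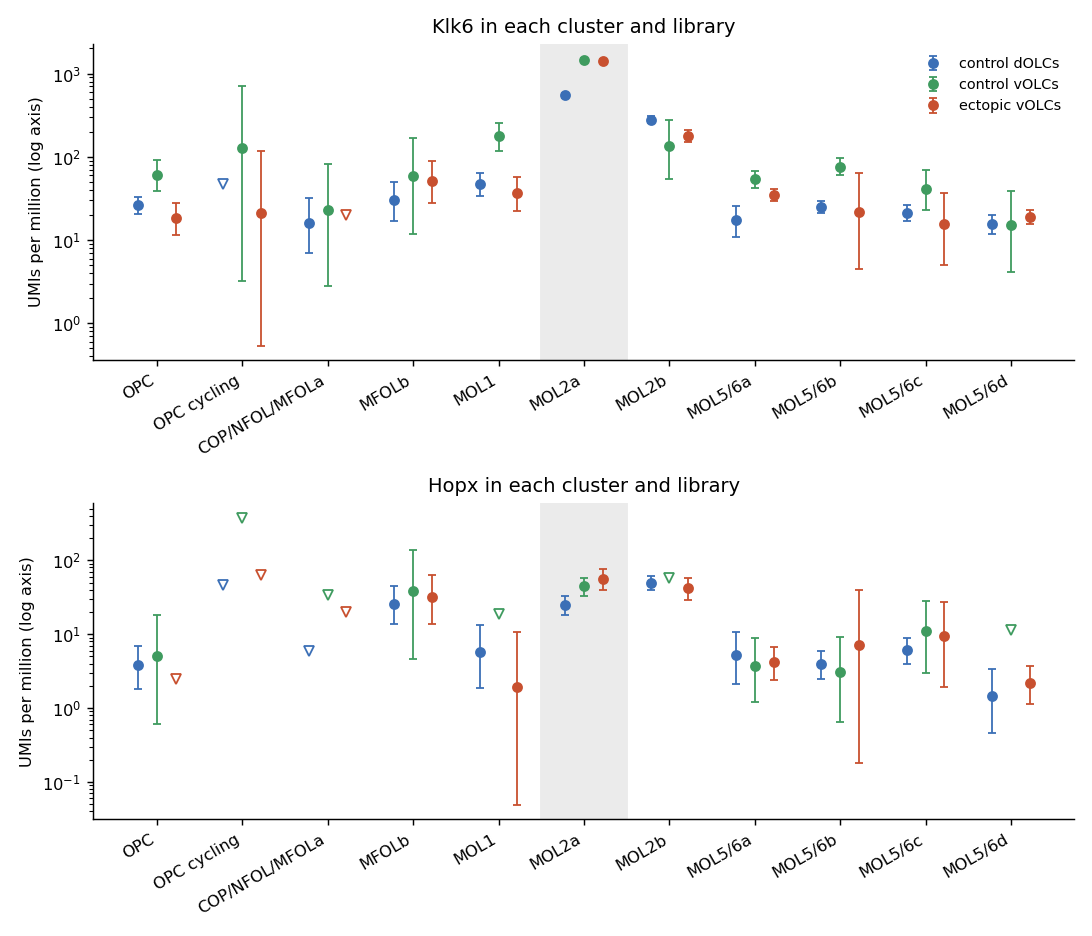
Level of Klk6 (top) and Hopx (bottom) in CPM on a log axis, in each cluster and library, with exact Poisson 95% intervals. MOL2a is shaded, and open triangles stand at the level of 3 UMIs where none was counted. Klk6 was at 546, 1451 and 1412 in MOL2a and at most 280 in the other clusters, and Hopx in control dOLCs was at 24.8 in MOL2a, 49.7 in MOL2b and 26.0 in MFOLb.

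Not every MOL2a cell had a Klk6 UMI. The share of cells with one was 44.98% in control dOLCs (40.6 to 49.5%), 72.1% in the control vOLCs (64.9 to 78.5%) and 83.5% in ectopic vOLCs (75.4 to 89.8%). In OPCs, which should lack the gene, it was 7.03%, 19.8% and 6.36%, at median depths of 2795, 3454 and 3422 UMIs. With every cell thinned to 1000 UMIs, which left out no cell, the shares in MOL2a were 25.1%, 44.1% and 45.2%, and those in OPCs 1.76%, 4.13% and 2.42%. The share in MOL2a was therefore above the background at equal depth in each library.

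Klk6 was spread unevenly over the MOL2a cells, those without it included. The median cell had 0, 3 and 4 UMIs of Klk6 in control dOLCs, control vOLCs and ectopic vOLCs, and the highest cell 38, 65 and 66. The tenth of cells with the most Klk6 held 62.3%, 47.1% and 46.9% of its UMIs. Among 558 genes with at least 0.2 UMIs per cell after thinning, the variance over the mean between MOL2a cells had a median of 1.03, a value of about 1 being that of counting noise, and Klk6 was at 3.30. The nuclear RNA Malat1 (11.2) and Ptgds (8.36) varied more, and Apod, a lipid-binding secreted protein, came next at 2.92. S100b, a calcium-binding protein, was at 1.58.

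Hopx was found in fewer cells. It had a UMI in 8.84% of MOL2a cells of control dOLCs, 20.1% of the control vOLCs and 27.0% of ectopic vOLCs. In OPCs it was 1.17%, 1.65% and 0 of 330 cells, with an exact upper limit of 1.11%. After thinning, the shares in MOL2a were 2.01%, 4.47% and 5.22%, a level too near to single UMIs for an order to be read. Most cells with Hopx also had Klk6, 30 of 44 in control dOLCs, 33 of 36 in the control vOLCs and 29 of 31 in ectopic vOLCs. Neither marker was seen in 52.2%, 26.3% and 14.8% of MOL2a cells, the largest share being in the library with the shallowest cells.

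By their whole profiles, most neighbours of MOL2a cells were MOL2a, and most of the others MOL5/6, which is also by far the larger cluster, with 6180 of the 9291 cells against 347 for MOL2b. Among the 30 nearest neighbours of a MOL2a cell over 50 principal components, 63.5% were MOL2a in control dOLCs, 80.0% in the control vOLCs and 77.6% in ectopic vOLCs. MOL5/6 made up 33.6%, 17.8% and 21.5%, and MOL2b 0.134%, 0.745% and 0%. Most neighbours were MOL2a for 62.9%, 81.0% and 83.5% of the cells. The neighbours within MOL2a came mainly from the same library (84.6%, 69.2% and 72.0%), while the libraries held 62.9%, 22.6% and 14.5% of all MOL2a cells, and after thinning to 1000 UMIs this share was 75.1%, 41.5% and 48.8%. MOL2b cells were deeper, with median depths of 7168, 8776 and 8292 UMIs, and had lower mitochondrial shares (medians of 3.66%, 4.18% and 4.02%). After thinning MOL2b was 0.375%, 2.18% and 0.058% of the neighbours and MOL5/6 42.4%, 26.9% and 28.2%, so that in control vOLCs the order of the 2 clusters relative to their sizes was not the same as without thinning.

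Against MOL5/6, a small set of genes set MOL2a apart in every library. A gene was counted when it was past 2-fold the same way in all 3 libraries, among genes with 20 or more UMIs in the compared cells and seen in 10% or more of the cells of either cluster, in each library. Of 4683 such genes, 47 were higher in MOL2a, which is 1.00%, and 21 were lower, which is 0.448%. These counts were 78 and 43 without control dOLCs and 10 and 2 with cells thinned to 1000 UMIs, and 37 genes were lower without control vOLCs. The median ratio over all of them was 0.01. Klk6 had the highest ratio, and Hopx was not among the tested genes because only 8.84% of the MOL2a cells of control dOLCs had it.

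The genes that followed Klk6 had differing functions. Serpind1, a secreted inhibitor of thrombin, was at 89.7, 73.2 and 102 CPM in MOL2a (control dOLCs, control vOLCs and ectopic vOLCs, in this order throughout) and at 10.0, 6.51 and 10.5 in MOL5/6, with log2 ratios of 3.16, 3.49 and 3.28. Enpp6, a choline phosphodiesterase known from newly formed oligodendrocytes, was at 328, 364 and 347 in MOL2a and at 45.4, 42.8 and 20.7 in MOL5/6. Both genes thus had nearly the same level in the 3 groups of MOL2a cells. Sepp1, the selenium carrier selenoprotein P, was at 1323, 1713 and 2232 against 296, 289 and 376, with log2 ratios of 2.16 (2.09 to 2.23), 2.57 (2.45 to 2.69) and 2.57 (2.48 to 2.65). S100b was at 475, 859 and 394 against 119, 105 and 79.5. Enpp6 was higher still in COP/NFOL/MFOLa, a cluster of committed and newly formed cells, at 816.5, 815 and 1125 CPM. In OPCs S100b was at 646, 565 and 868.

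The other genes among the 10 highest were Slc45a3, a sugar transporter, Mmd2, Tspan9, a tetraspanin, Pla2g4a, the cytosolic phospholipase A2, and Smtnl2, with medians of the 3 ratios between 2.31 and 2.92. Mmd2 was the least even of them, at 87.7, 151 and 129 CPM in MOL2a and at 30.4, 22.6 and 20.8 in MOL5/6. Its ratio was 1.53 (1.27 to 1.78) in control dOLCs and 2.74 (2.32 to 3.17) in control vOLCs. S100b also had a higher ratio in control vOLCs, at 3.03 (2.84 to 3.22), than in control dOLCs (1.99, 1.88 to 2.11) or ectopic vOLCs (2.31, 2.11 to 2.51).

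Genes that were lower in MOL2a included Ptgds and Il33, 2 of the 7 listed markers of the MOL5/6 state. Ptgds was at 11640, 8918 and 5538 CPM in MOL2a and at 30990, 40970 and 36050 in MOL5/6. Its log2 ratio was −1.41 (−1.43 to −1.39) in control dOLCs, −2.20 (−2.23 to −2.17) in the control vOLCs and −2.70 (−2.75 to −2.66) in ectopic vOLCs, so that the 2 clusters were furthest apart in the ectopic library. Il33, an alarmin cytokine held in the nucleus, was at 345, 173 and 344 in MOL2a and at 711, 641 and 1136 in MOL5/6. Adamts1, a secreted metalloprotease, was at 23.3, 9.37 and 4.36 against 64.6, 55.8 and 34.6, and Timp3, an inhibitor of such proteases, at 17.8, 13.6 and 5.81 against 57.8, 54.8 and 49.8. In ectopic MOL2a cells these 2 genes rested on 3 and 4 UMIs, and after thinning their ratios there were −0.44 and −0.89, short of 2-fold. Il33 was then at −0.84 in control dOLCs, and Rap2a, named below, at −0.14 in ectopic vOLCs and −0.89 in control vOLCs. The others were Adamtsl1, Aebp1, Epas1 (a hypoxia-inducible transcription factor), Phlda1, the semaphorin Sema6d and the small GTPase Rap2a, with medians of the 3 ratios between −1.96 and −1.68.

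**Figure D3:**
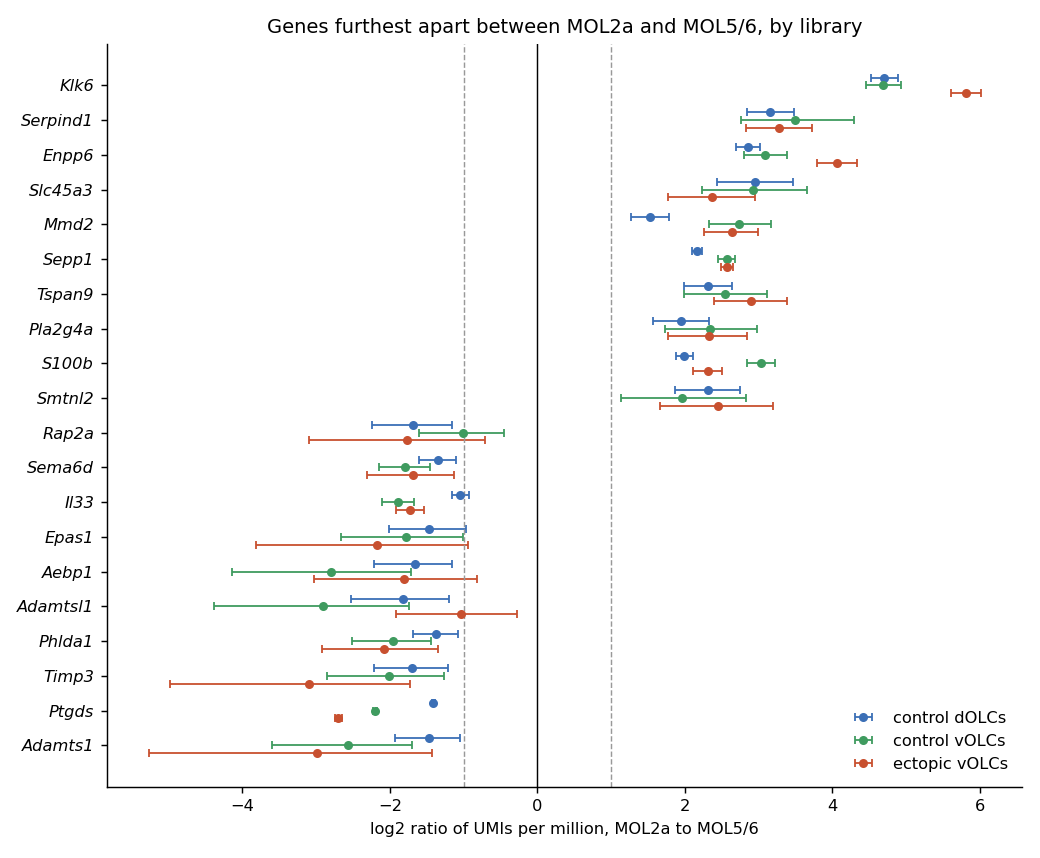
Log2 ratio of CPM in MOL2a to MOL5/6 for the 10 genes with the highest and the 10 with the lowest median ratio, 1 point per library with exact 95% intervals of counting error. Dashed lines mark 2-fold. Klk6 stood highest, at 4.70, 4.69 and 5.81, and Ptgds was lower in MOL2a by −1.41, −2.20 and −2.70.

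The lists of markers can be read beside the 1.00% of all genes that were higher and the 0.448% that were lower. Of the 4 MOL2 markers, 3 were tested and all were higher, Klk6, the phospholipid-binding annexin Anxa5 (95.1, 114 and 121 CPM against 37.8, 32.2 and 38.9) and Mgst3, a microsomal glutathione transferase (69.9, 112 and 113 against 33.8, 40.1 and 32.5). Of the 7 MOL5/6 markers, 2 were lower (Ptgds and Il33) and 2 went the other way. Apod was at 9289, 11490 and 15420 against 3676, 4890 and 5114, and Serpinb1a, an intracellular inhibitor of serine proteases, at 711, 740 and 1010 against 249, 277 and 337. The list of the state was therefore mixed, and its median ratio was −0.02. Car2, the carbonic anhydrase of oligodendrocytes, and Grm3, a glutamate receptor, differed by at most 0.09 in any library, and Jph4 by −0.59, −0.64 and −1.72.

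Of 13 proteases and inhibitors tested, Klk6, Serpinb1a and Spock3, a matrix proteoglycan that can inhibit proteases, were past 2-fold higher in each library, beside 1.00% of all genes, with Spock3 at 490, 635 and 715 CPM against 208, 284 and 319. Ctsb, a lysosomal cathepsin, was at 742, 730 and 775 against 676, 662 and 715. Of 6 annexins and S100 proteins tested, Anxa5 and S100b were higher, beside the same 1.00%. S100a16 was at 1326, 1499 and 1266 against 1079, 1136 and 1132.

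No gene of the lists of myelin proteins, axoglial adhesion, gap junctions and ion transport, fatty acid synthesis or microtubules was past 2-fold in all 3 libraries, beside only 1.00% higher and 0.448% lower over all genes, so that this count is near the background. Mbp, a protein that compacts the myelin membrane, was at 6059, 6436 and 5468 CPM against 6035, 6002 and 6703. Opalin, a membrane protein of oligodendrocytes, was the lowest of them, at 874, 513 and 1019 against 1645, 1582 and 2106. Gjb1, a gap junction connexin, was among the highest, at 893, 1231 and 1107 against 496, 569 and 554. Trf, the iron carrier transferrin, was at 14830, 17100 and 19220 against 7312, 8689 and 8633, just short of 2-fold in control vOLCs with a log2 ratio of 0.98 (0.95 to 1.00).

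The cholesterol synthesis genes that were tested had a median log2 ratio of 0.61 the galactolipid and sphingolipid genes one of 0.53 and the fatty acid genes one of 0.19, against 0.01 over all genes, with no gene past 2-fold in every library. Sqle, squalene epoxidase, had ratios of 0.89, 1.28 and 1.21. Sc5d, a sterol desaturase, was at 114, 118 and 196 CPM against 70.4, 78.1 and 102. Among fatty acid genes the elongases Elovl1 (0.90, 1.02 and 1.09) and Elovl5 (1.01, 0.87 and 1.45) were highest.

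Ribosomal protein genes were lower as a class. All 80 tested lay below 0 against MOL5/6, with a median of −0.77 and none past 2-fold in every library. They made up 3.12%, 3.06% and 2.65% of the UMIs of MOL2a, 5.18%, 4.24% and 5.37% of those of MOL5/6 and 6.21%, 7.02% and 6.22% of those of MOL2b.

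Against MOL2b the difference ran mainly 1 way. Of 5470 genes tested, none was higher in MOL2a past 2-fold in all 3 libraries (0%), and 106 were lower, which is 1.94%. With median of ratios size factors 6 were higher and 53 lower, and with cells thinned to 1000 UMIs 56 were lower. Of these 106, 45 were ribosomal protein genes, and all 80 ribosomal protein genes tested were below 0, with a median of −1.17 against −0.10 over all genes. The lowest other genes were Taf10, a subunit of the general transcription factor TFIID, at 14.9, 19.6 and 11.6 CPM against 62.9, 76.6 and 61.3, and Nsa2, a ribosome assembly factor, at 28.7, 29.0 and 20.3 against 79.1, 115 and 86.8, although after thinning the ectopic ratio of Nsa2 was −0.70. Rpl35, a ribosomal protein of the large subunit, was at 128, 162 and 100.3 against 385, 651 and 382. Rps12-ps3, a pseudogene whose reads cannot be told from those of Rps12, and Ly6g6f completed the lowest 5. All 13 mitochondrial genes were above 0, with a median of 0.90, beside the deeper cells and lower mitochondrial shares of MOL2b given above, whose part was not tested.

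The 6 MOL2b cells of control vOLCs held 52238 UMIs and limited this comparison, and Scrublet called 2 of the 6 as doublets. Without that library 5788 genes were tested, of which 5 were higher past 2-fold in both remaining libraries (0.0864%) and 166 lower (2.87%). Without control dOLCs instead, 25 were higher and 277 lower. The 5 were A330017A19Rik, Plppr5, the mitochondrial gene mt-Atp8 (242 and 347 CPM against 108 and 125), Usp53, a protein of cell junctions, and the scaffold protein Caskin2. Klk6 was not among them, because its ratio to MOL2b was 0.96 (0.80 to 1.12) in control dOLCs, although it was 3.44 (2.39 to 4.75) in the control vOLCs and 2.99 (2.74 to 3.24) in ectopic vOLCs. Serpind1, Enpp6, Sepp1 and S100b, which were high against MOL5/6, were also high in MOL2b of control dOLCs, at 79.7, 264, 1249 and 634 CPM. In MOL2a of control dOLCs Serpind1, Enpp6 and S100b were at 89.7, 328 and 475. In ectopic vOLCs Serpind1, Enpp6 and S100b were at 55.5, 226 and 346 in MOL2b, against 102, 347 and 394 in MOL2a.

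Between conditions, more genes were lower than higher in ectopic MOL2a cells. Genes were tested when the MOL2a cells of the 3 libraries held 50 or more of their UMIs and 10% or more of those of 1 library had one. Of 6186 genes, 52 were past 2-fold higher in ectopic vOLCs than in control dOLCs (0.841%) and 548 lower (8.86%). Against control vOLCs, 45 were higher (0.727%) and 535 lower (8.65%). The median over all genes was −0.16 in the first and −0.18 in the second comparison, so that a ratio has to be read against this shift. The split depended on the scaling. Genes higher in ectopic vOLCs were 8.67% of those past 2-fold against control dOLCs as reported, 23.3% with TMM factors, 27.9% with median of ratios size factors and 25.1% after the trend with transcript length was taken off, and against control vOLCs these were 7.76%, 21.7%, 23.3% and 25.9%. The Spearman correlation of the ratio with transcript length, over 6024 genes of the same libraries, was −0.18 against control dOLCs and −0.12 against control vOLCs.

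Both comparisons share the ectopic library, and a gene was singled out when it was past 2-fold the same way against both. This held for 11 genes higher (0.178%) and 323 lower (5.22%). With TMM factors it held for 28 and 210, and with median of ratios size factors for 31 and 196. All 11 had both intervals above 0, whereas 224 of the 323 had both below 0, and 67 of the 323 had 5 or fewer UMIs in the ectopic MOL2a cells.

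Tubb3, a beta tubulin best known from neurons, had the highest ratio. It was at 11.9 CPM in control dOLCs (7.62 to 17.7), 17.0 in the control vOLCs (10.4 to 26.3) and 231 in ectopic vOLCs (197 to 270), from 24, 20 and 159 UMIs. The ectopic level was 19.4-fold that of control dOLCs and 13.6-fold that of control vOLCs. The log2 ratios were 4.28 (3.66 to 4.96) and 3.76 (3.09 to 4.51). After thinning to 1000 UMIs the log2 ratio to control dOLCs was 5.34, with a UMI of Tubb3 in only 3 of the control dOLC cells. The gene had a UMI in 4.62%, 8.94% and 59.1% of the MOL2a cells, and in 34.9% of the MOL5/6 cells and 31.2% of the OPCs of the ectopic library, so that its higher level was not confined to MOL2a. The summed level of 6 neuron markers in MOL2a was 19.3, 8.52 and 13.1 CPM, and Rbfox3, Slc17a7 and Gad1 were at 0 in ectopic MOL2a cells. These sums rested on 39, 10 and 9 UMIs, and the part of neuronal RNA in the level of Tubb3 was not tested.

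The other genes higher than both controls were less far from them. Npsr1, the neuropeptide S receptor, was at 28.7, 28.1 and 103 CPM, with log2 ratios of 1.84 (1.32 to 2.37) and 1.88 (1.26 to 2.52). Itih3, a secreted hyaluronan-binding protein, was at 33.7, 29.0 and 116, with ratios of 1.79 (1.30 to 2.27) and 2.00 (1.41 to 2.63). Paqr6, a progestin receptor of the membrane, was at 44.1, 52.0 and 131, with ratios of 1.57 (1.13 to 2.01) and 1.33 (0.85 to 1.82). In these genes the 2 controls overlapped and the ectopic library stood apart.

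Nap1l3, Rtkn2, Gm43207 and Asb3 completed the highest 8, on 41, 27, 20 and 18 UMIs in ectopic cells. Nap1l3, a nucleosome assembly protein, was at 21.3, 27.3 and 59.6 CPM, and Asb3 at 11.9, 8.52 and 26.2. Rtkn2 was at 15.4, 16.2 and 39.2, but after thinning to 1000 UMIs its ratios were −0.06 and −0.36. Thinning also took Gm43207 to 0.12 against control dOLCs and Paqr6 to 0.78 against control vOLCs, both short of 2-fold. The remaining 3 of the 11, named after their values were seen, were Ggt7, Fam3c and Cldn14. In MOL5/6 the ectopic ratios were 1.71 and 1.18 for Npsr1 and 0.89 and 1.42 for Itih3, and for Rtkn2 they were 0.16 (−0.13 to 0.43) and −0.03 (−0.47 to 0.44).

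Among the genes lower than both controls, Gm10260 had the lowest ratios, at 41.6, 76.7 and 2.91 CPM, the last from 2 UMIs. Its log2 ratios were −3.84 (−6.91 to −1.94) and −4.72 (−7.79 to −2.83). RefSeq names this gene Rps18-ps6, a pseudogene that shares its sequence with Rps18, and the 2 genes summed had ratios of −0.26 and −0.33. The low count of Gm10260 is therefore uncertain as a measure of its own RNA.

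Eya2, a transcriptional coactivator with phosphatase activity, had 52 UMIs in MOL2a of control dOLCs, 29 in the control vOLCs and 0 in ectopic vOLCs. Against a floor of 3 UMIs in the ectopic cells it was at least 5.91-fold lower than in control dOLCs and at least 5.67-fold lower than in control vOLCs. In MOL5/6 it stood at 48.5, 49.0 and 1.42 CPM. Tppp, which promotes microtubule assembly in myelin sheaths, was at 311 (287 to 336), 276 (247 to 308) and 100.3 (78.0 to 127), with log2 ratios of −1.63 (−2.01 to −1.27) and −1.46 (−1.86 to −1.08). The study named both genes for ectopic oligodendrocytes of these libraries, so that their choice is not independent, and in both the ectopic library lay clear of the controls.

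The other genes with the lowest ratios rested on 1 to 3 UMIs in ectopic cells. Dlk2, a Notch-related membrane protein, was at 51.0, 29.8 and 4.36 CPM, with ratios of −3.55 (−5.85 to −1.96) and −2.77 (−5.12 to −1.11), and in MOL5/6 it was lower in the ectopic library too, by −3.39 (−3.89 to −2.93) against control dOLCs. Kif21b, a kinesin motor, was at 25.8, 23.0 and 2.91, with ratios of −3.15 (−6.23 to −1.22) and −2.98 (−6.10 to −0.99). Rilpl2 was at 16.4, 16.2 and 1.45, with ratios of −3.49 (−8.84 to −0.91) and −3.48 (−8.85 to −0.82), while in MOL5/6 its ratios were −0.07 (−0.35 to 0.21) and 0.24 (−0.25 to 0.76). Wipf2 and Chst3, a chondroitin sulfotransferase, Abca1, a cholesterol exporter, and Zcchc14 followed with 2 UMIs each. After thinning the ratios of Chst3, Abca1 and Zcchc14 to control dOLCs turned positive, Dlk2 was at −1.001 and −0.10 against the 2 controls, and Rilpl2 at −0.69 against control dOLCs.

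**Figure D4:**
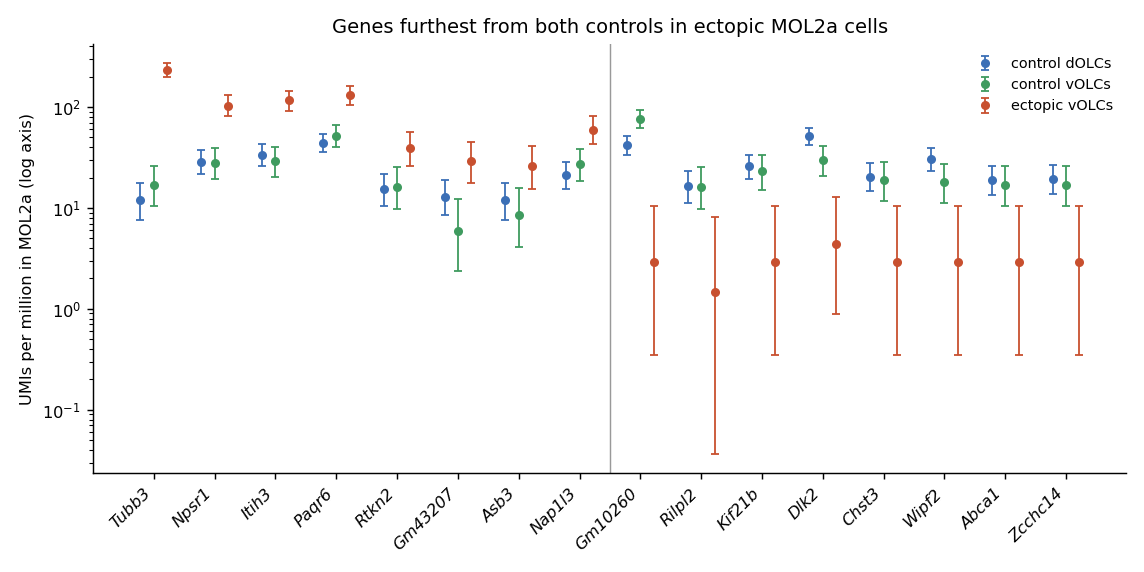
Level in MOL2a of the 8 genes furthest above and the 8 furthest below both controls in ectopic vOLCs, in CPM on a log axis, with exact Poisson 95% intervals. Tubb3 stood at 231 in ectopic vOLCs against 11.9 and 17.0, and the 8 genes on the right rested on 1 to 3 UMIs in the ectopic cells.

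The marker Klk6 was 2.59-fold higher in ectopic vOLCs than in control dOLCs (log2 ratio of 1.37, 1.25 to 1.497) and level with control vOLCs (−0.04, −0.15 to 0.08). Control vOLCs were 2.66-fold above control dOLCs (1.41, 1.30 to 1.52). These pooled ratios do not separate the share of MOL2a cells with Klk6 (44.98%, 72.1% and 83.5%) from its level per cell. In MOL5/6 as a whole control vOLCs were above control dOLCs by a like ratio, 1.42 (1.14 to 1.70), and ectopic vOLCs were above control dOLCs by 0.26 (0.02 to 0.50) and below control vOLCs (−1.16, −1.45 to −0.87). Within MOL5/6a alone the levels of Klk6 were 17.2, 54.0 and 35.2 CPM. In OPCs, taken as background, the levels were 26.3, 60.8 and 18.3 CPM. The part of background RNA in the higher level of control vOLCs was not tested, and in ectopic vOLCs the background in OPCs was the lowest of the 3. Hopx had ratios of 1.16 (0.51 to 1.79), 0.32 (−0.33 to 0.95) and 0.84 (0.25 to 1.43) in the same order of comparisons. Anxa5 and Mgst3, the other MOL2 markers, had 0.34 and 0.70 against control dOLCs and 0.08 and 0.01 against control vOLCs. The median of the 4 markers was thus 0.93, 0.05 and 0.76, against −0.16, −0.18 and 0.01 over all genes.

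Markers of the MOL5/6 state differed in direction between ectopic MOL2a cells and the controls. Ptgds was lower than in control dOLCs by −1.07 (−1.12 to −1.02) and than in control vOLCs by −0.69 (−0.74 to −0.63). In MOL5/6 the ectopic ratios of Ptgds were 0.22 and −0.19. In MOL2b Ptgds was at 8702, 15850 and 6641 CPM, the middle value from 6 cells. Jph4 was at 130, 123 and 53.8 CPM and was past 2-fold lower against both controls (−1.28 and −1.2). Il33 was the same as in control dOLCs (−0.00, −0.22 to 0.21) and higher than in control vOLCs (0.99, 0.72 to 1.27). Apod was higher than both, by 0.73 (0.70 to 0.77) and 0.42 (0.39 to 0.46). S100b was 2.18-fold lower than in control vOLCs (−1.12, −1.32 to −0.93).

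Of 14 myelin proteins none was past 2-fold in any comparison, and their median was 0.18 against control dOLCs, 0.14 against control vOLCs and 0.06 between the controls. With 0.841% of all genes higher and 8.86% lower against control dOLCs, a count of 0 among 14 is near the background. Opalin had the ratio furthest from 0 in any comparison, 0.99 (0.83 to 1.15) for ectopic against control vOLCs. It was at 874, 513 and 1019 CPM, with −0.77 (−0.91 to −0.63) between the controls, where another member reached 0.91. Mog, a myelin protein of the outer surface, was at 2567, 2865 and 3825 CPM, Cldn11, which seals the myelin wraps, at 6466, 6427 and 9294, and Mag, an adhesion protein facing the axon, at 6597, 5669 and 7370. Of 13 axoglial adhesion genes, Ank3 and Nfasc, scaffold and adhesion proteins of the node of Ranvier, were past 2-fold lower against control dOLCs, beside 8.86% of all genes. Ank3 was at 366, 305 and 170 and Nfasc at 300, 231 and 150, with ratios of −1.11 and −1.002. Neither passed 2-fold against control vOLCs (−0.84 and −0.62).

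Of 18 cholesterol synthesis genes that passed the filter, 13 were above 0 in ectopic MOL2a cells against control dOLCs and 14 against control vOLCs, beside 37.7% and 34.7% of all genes, and 13 were above 0 between the controls too, beside 51.7%. Their medians were 0.51 and 0.24, and 0.18 between the controls. In MOL5/6, whose make-up differed between the libraries, the medians were 0.02, 0.04 and −0.03. Idi1, an isomerase of the mevalonate pathway, was at 68.9, 131 and 142 CPM, and Nsdhl, a sterol dehydrogenase, at 25.3, 33.2 and 50.9. These 2 genes were past 2-fold against control dOLCs (0.841% of all genes were), with ratios of 1.05 (0.66 to 1.43) and 1.01 (0.35 to 1.66), but not against control vOLCs (0.12 and 0.61). Sc5d had 0.79 (0.47 to 1.10) and 0.74 (0.39 to 1.09), and Fdft1, squalene synthase, 0.71 and 0.97. Srebf2, the transcription factor that drives the pathway, was lower, at 80.3, 70.7 and 47.9.

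Other lipid lists were nearer to all genes. The 14 galactolipid and sphingolipid genes had medians of 0.09 and 0.19 and the 13 fatty acid genes 0.02 and −0.07. Within the latter Fasn, fatty acid synthase, was past 2-fold lower than in control dOLCs (196, 153 and 91.5 CPM), 1 of 13 beside 8.86% of all genes, and Scd2, the desaturase most used by oligodendrocytes, was at 3664, 3071 and 2002, whereas Tecr and Degs1 of the 2 lists were at 1096, 1103 and 1517 and at 565, 624 and 867. The 18 microtubule genes had medians of 0.04 and −0.18, with Tubb3 past 2-fold higher and Tppp lower, beside 0.841% and 8.86% of all genes against control dOLCs and 0.727% and 8.65% against control vOLCs. Stmn4 was at 2962, 3040 and 3598, and Dpysl2, a protein of microtubule assembly, at 478, 494 and 273.

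Among the proteases and inhibitors the medians were 0.18 and 0.14 over 13 genes. Against control dOLCs 2 were past 2-fold higher, beside 0.841% of all genes, and 1 lower, beside 8.86%. Plat, tissue plasminogen activator, was, with Klk6, past 2-fold above control dOLCs (58.5, 69.8 and 118 CPM), and its inhibitor Serpine2 was past 2-fold below them (43.1, 14.5 and 15.98). Serpine2 was as low in control vOLCs. Of the 12 gap junction and ion transport genes none was past 2-fold, with medians of 0.14 and −0.17; Slc12a2, a chloride cotransporter, came closest, at 578, 588 and 305. Of the 5 iron genes none was past 2-fold either, counts that are near the 8.86% and 8.65% of all genes that were lower. Fth1, ferritin heavy chain, was at 14680, 18860 and 12000.

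Of 16 immediate early and heat shock genes, 6 passed the filter, of which 2 were past 2-fold lower in ectopic MOL2a cells than in control dOLCs and 3 than in control vOLCs (8.86% and 8.65% of all genes were), and 1 was above 0 against control dOLCs. They had medians of −0.74 and −0.90, against −0.14 in MOL5/6 for the comparison with control dOLCs. Dusp1, a phosphatase induced by stress, was at 24.3, 22.2 and 7.26 CPM, and Hspa1a, an inducible heat shock protein, at 52.5, 37.5 and 17.4, both past 2-fold lower than both controls. Jun was at 153, 148 and 91.5 and Jund at 461, 448 and 276. These genes also respond to dissociation and sorting, and the handling of the libraries could not be told apart from the conditions. The 6 genes of antigen presentation and reactive states that passed had medians of 0.38 and 0.40, with none past 2-fold, beside 0.841% and 0.727% of all genes higher. The markers of the MOL1 state are all members of the immediate early list, and 2 of the 5 passed the filter, Dusp1 and Dnajb1 (33.7, 50.2 and 23.2).

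Of 12 transcription factors that passed the filter, Hopx was past 2-fold higher than in control dOLCs (0.841% of all genes were), and Sox2 (36.7, 23.0 and 13.1 CPM) and Tcf7l2 (25.8, 19.6 and 8.72) were past 2-fold lower than in control dOLCs, and Tcf7l2 also than in control vOLCs, beside 8.86% and 8.65% of all genes. Myrf, the master regulator of myelination, was at 315, 293 and 163, with ratios of −0.95 and −0.85, and Sox10 at 445, 321 and 241. Olig1 (1909, 1973 and 1793) and Olig2 (286, 373 and 276) were closer to the controls. Genes that pattern the forebrain in development were barely detectable at this depth. The dorsal gene Emx1 and the ventral genes Dlx1, Dlx2, Gsx2 and Nkx2-1 had no UMI in the MOL2a cells of any library, and the dorsal gene Emx2 had 2, 1 and 0.

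Lists that the study drew from oligodendrocytes of these libraries, mainly MOL5/6, are not independent evidence, and their values in MOL2a are given as a description. Of 35 genes it listed as lower in ectopic oligodendrocytes, 34 were below 0 against control dOLCs, with a median of −0.87, and 12 were past 2-fold, beside a median of −0.16 and 8.86% past 2-fold over all genes. Against control vOLCs the median was −0.68 with 6 past 2-fold, beside −0.18 and 8.65%, and in MOL5/6 the medians were −0.85 and −0.80. Neat1, a nuclear RNA, was at 513, 462 and 205 CPM, Slc38a2, an amino acid transporter, at 534, 584 and 247, and Dst, a cytoskeletal linker, at 219, 177 and 85.7. Of 6 genes it listed as higher and that passed the filter, Npsr1 and Tubb3 were past 2-fold, beside 0.841% of all genes against control dOLCs and 0.727% against control vOLCs. The study also singled out Tubb3, Eya2 and Tppp, whose values are given above. The median of the 6 was 0.55 in MOL2a and 1.33 in MOL5/6 against control dOLCs, and 0.99 and 1.00 against control vOLCs. Magi1, a scaffold protein, was at 61.0, 47.7 and 75.6 in MOL2a but at 147 in ectopic MOL5/6 cells. The 8 L1CAM interaction genes had medians of −0.36 and −0.50.

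**Figure D5:**
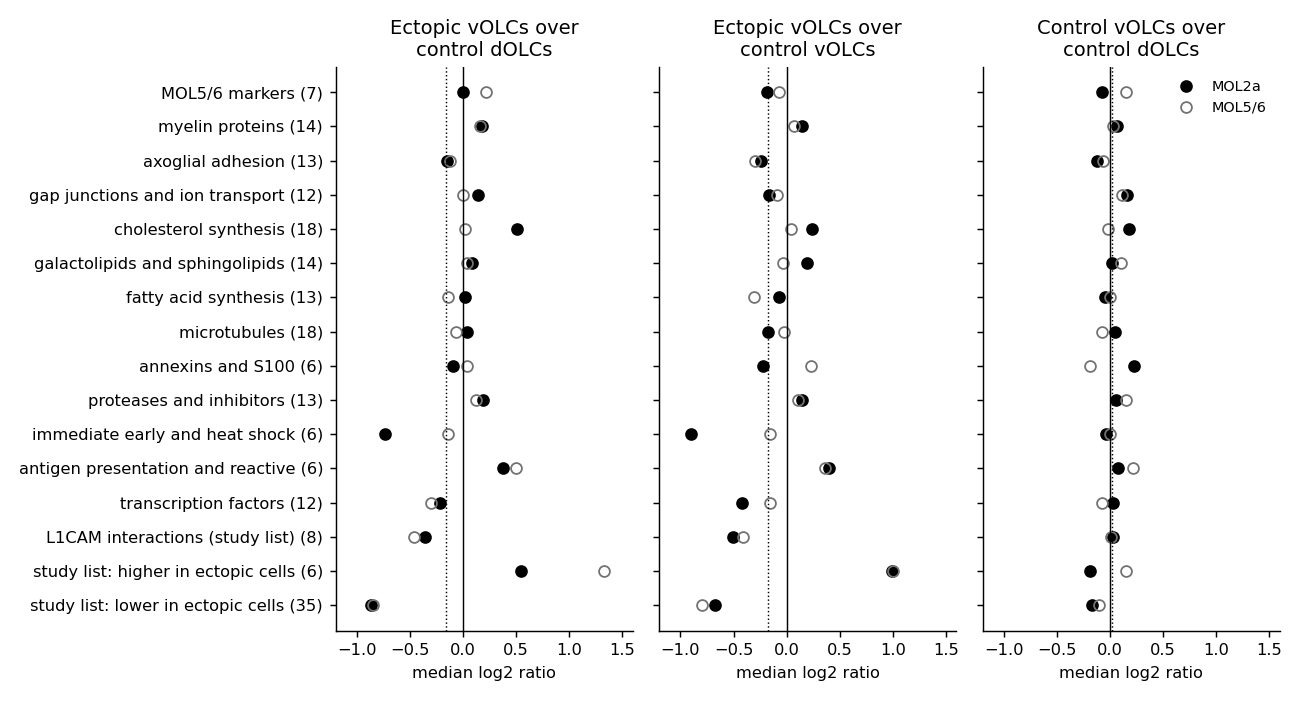
Median log2 ratio of each gene list in MOL2a (filled) and MOL5/6 (open) for the 3 comparisons of conditions, with the number of genes past the filter in brackets and the median of all tested genes as a dotted line. Cholesterol synthesis stood at 0.51 and 0.24 in MOL2a against 0.02 and 0.04 in MOL5/6 for the ectopic cells, and immediate early and heat shock genes at −0.74 and −0.90.

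Between the control libraries, fewer genes differed in MOL2a, and origin cannot be told apart from other differences between the 2 libraries. Of the same 6186 genes, 97 were past 2-fold higher in control vOLCs than in control dOLCs (1.57%) and 48 lower (0.776%), with a median of 0.01 over all genes. The split turned without the filter on low counts, to 562 higher and 706 lower, and was 26 and 21 with thinned cells. Klk6 was among those higher. The 5 highest were Gm10250, the histone gene Hist2h2aa1, Gm10116, Rpl36-ps3 and Gm8797, with log2 ratios of 2.25 to 2.83, although after thinning Hist2h2aa1 was at 0.74. Of the 20 highest, 7 were named as ribosomal pseudogenes and 6 were Gm models, and all 9 ribosomal pseudogenes past the filter were past 2-fold, with a median of 2.00. These share reads with near-identical parent genes, and summed with their parents the ratios were between −0.03 and 0.77. The 9 pseudogenes were lower again in ectopic vOLCs, with a median of −2.15 against control vOLCs.

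Of the lowest genes, Marcks, a membrane protein that binds actin, was at 27.3 CPM in control dOLCs, 3.41 in the control vOLCs and 7.26 in ectopic vOLCs, with a ratio of −3.00 (−4.93 to −1.56) between the controls. Zfhx4, a homeodomain transcription factor, was at 34.2, 8.52 and 7.26, with a ratio of −2.005 (−3.13 to −1.04). Nnat, the imprinted gene neuronatin, was at 28.2, 7.67 and 13.1, but at a ratio of −0.26 between the controls after thinning. The others were Serpine2 at 43.1, 14.5 and 15.98 and Dgat2, an enzyme of triglyceride synthesis, at 20.3, 5.96 and 20.3. In all but Dgat2 the ectopic level was nearer to that of control vOLCs, whereas the 9 pseudogenes were nearer to control dOLCs, with a median of −0.06 against them. In MOL5/6 the ratio of the controls was −2.41 (−3.30 to −1.65) for Marcks and −0.96 (−1.44 to −0.52) for Zfhx4.

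Traces of other cell types were few in MOL2a. Pericyte markers had no UMI in any library, microglia markers summed to 2.97, 1.70 and 1.45 CPM and endothelium markers to 4.46, 5.11 and 2.91. Astrocyte markers summed to 227, 202 and 211, nearly all from Aldoc and Slc1a3, which oligodendrocytes also express, while Gfap was at 1.98, 0.852 and 0 and Aqp4 at 2.97, 0 and 2.91. OPC markers were low too, and C1ql1, at 63.4, 24.7 and 26.2, was past 2-fold lower in both ventral groups than in control dOLCs. Among the 5 markers of committed and newly formed cells, Enpp6 was high and level over the groups, Itpr2 was at 23.8, 14.5 and 23.2, Neu4 and Bmp4 had at most 23 UMIs in a library, and Tcf7l2 is given above.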

How the data were processed

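Sorted cells of 3 libraries were profiled by droplet sequencing (10x Genomics). The deposited table, as the authors made it, holds UMI counts of 27998 genes per cell, not normalized, and the deposited annotation gives each cell's library and cluster. Per the submitters' processing notes, Cell Ranger 2.1.1, Seurat 3 and 4.0 and the build mm10 were used. Counting by UMI removes duplicates of amplification, but reads shared by near-identical genes can be split or lost. The 4 neonatal samples were not analysed here.

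Counts were summed over the cells of a cluster in each library and scaled to 1000000 UMIs. MOL5/6a to MOL5/6d were joined as MOL5/6. Intervals are exact Poisson for levels, exact conditional binomial for ratios and Clopper-Pearson for shares, at 95%. Where no UMI was counted, a fold is given against a floor of 3 UMIs. The count model usual for such data was not used, because each condition is 1 library. The deepest library of MOL2a held 2018071 UMIs and the shallowest 688192. Neighbours were found on square root transformed counts scaled to equal totals, with 50 components. Doublets were not removed: Scrublet called 57 of 9291 cells (0.614%), too few to rely on, and leaving out the 6% of highest scores was an alternative. The calculation was tested on simulated Poisson counts. These hold no spread between cells beyond counting, so that coverage of the intervals under the spread seen in Klk6 or Ptgds was not tested.

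Named genes were Klk6, Hopx and members of the lists; the 10 highest and 10 lowest by the median of the 3 ratios to MOL5/6, and 5 and 5 to MOL2b, among genes past 2-fold in all 3 libraries; the 8 highest and 8 lowest of ectopic vOLCs by the smaller ratio to the 2 controls, with both intervals on 1 side of 0; and 5 and 5 between the controls. The lists covered markers of mature, newly formed and precursor oligodendrocytes and of other cell types, myelin, adhesion, ion transport, lipids, microtubules, annexins, proteases, iron, stress, antigen presentation, transcription factors, sex-linked genes and the study's own lists. Members and lists were chosen with earlier results of these data known. Alternatives were TMM factors (edgeR 4.0.16), size factors (DESeq2 1.42.0, R 4.3.3), a mean over cells, thinning to 1000 UMIs, a limit of 10% mitochondrial counts, no filter, 1.5-fold, equal weight of the 4 MOL5/6 clusters, oligodendrocytes as the total, taking off the trend with transcript length in 20 bins, and leaving out a library. The other software was Python 3.11.15, scanpy 1.11.5 for Scrublet, scipy 1.17.1 for intervals, pandas 2.3.3 and numpy 2.4.6 for sums, matplotlib 3.10.9 for figures and scikit-learn 1.9.0 for components and neighbours.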

Additional observations from a re-analysis of the deposited data

How the results depend on the processing

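Each condition is 1 library, so counting error is the only error that could be given, and the 115 ectopic MOL2a cells limit the lower levels most. The 6 MOL2b cells of control vOLCs limit the comparison with MOL2b. Depth, mouse and sort cannot be told apart from condition. No paired analysis was possible because each group is 1 library. Of the values of comparisons and lists under the alternatives, 406 stayed within counting error or within 1.5 times the count reported and 90 did not. Of 885 values of named genes under the alternatives, 819 stayed within the counting interval, 60 left it with the same sign and 6 changed sign. Some alternatives use fewer UMIs, fewer genes or fewer libraries. The cause of a changed value was not tested under any alternative.

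With TMM factors the genes past 2-fold in ectopic vOLCs were 106 higher and 349 lower against control dOLCs, 100 higher against control vOLCs, and 28 higher and 210 lower against both. Klk6 was then at 1.53 and 0.14, the gap junction and ion transport median against control dOLCs at 0.30, and the medians of the genes the study listed as lower at −0.71 and −0.50. The median of all genes was 0.01 and −0.01 with these factors, against −0.16 and −0.18 as reported. With median of ratios size factors the counts were 125 and 323, 104 and 342, and 31 and 196, Klk6 was at 1.57 and 0.15, the study's lower genes at −0.68 and −0.49, and against control dOLCs the gap junction median was 0.33, that of microtubules 0.23 and that of transcription factors −0.02. Against MOL2b these factors gave 6 higher and 53 lower. With the trend with transcript length taken off, the counts were 103 and 308, 112 and 321, and 29 and 184, Klk6 was at 1.497 and 0.16, the gap junction median at 0.30 and the study's lower genes at −0.48 and −0.29. Under these 3 scalings Klk6 turned from −0.04 to above 0 against control vOLCs.

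With cells thinned to 1000 UMIs, 10 genes were higher and 2 lower against MOL5/6, 56 were lower against MOL2b, ectopic vOLCs had 112 genes lower against control dOLCs and 161 against control vOLCs, 6 higher and 82 lower against both, and 26 higher and 21 lower between the controls. Klk6 was at 4.38 over MOL5/6 in control dOLCs, −0.18 for ectopic against control vOLCs and 1.54 between the controls, and the study's lower genes were at −0.58 against control vOLCs. The MOL2a share of neighbours was 52.9% in control dOLCs and 68.2% in control vOLCs. Against control dOLCs Abca1 (0.70), Chst3 (1.11), Zcchc14 (0.89) and Rtkn2 (−0.055) changed sign, and against control vOLCs Zcchc14 (0.22) and Rtkn2 (−0.36). Among genes past 2-fold, 24.8% were then higher against control dOLCs, 18.3% against control vOLCs and 55.3% between the controls, the last against 66.9% as reported.

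Without the filter on low counts, 143 genes were higher and 53 lower against MOL5/6, 160 lower against MOL2b, 385 higher and 1569 lower against control dOLCs, 288 and 1443 against control vOLCs, 104 and 894 against both, and 562 and 706 between the controls. The share of higher genes was 19.7% against control dOLCs and 44.3% between the controls. Past 1.5-fold the counts were 139 and 103, 64 and 405 against MOL2b, 331 and 1364, 293 and 1382, 127 and 947, and 402 and 268. With the mean over cells, Klk6 was 4.496 and 4.46 above MOL5/6 in control dOLCs and control vOLCs, and 1 gene was higher than in MOL2b, as it was without the highest Scrublet scores (1). With the 4 MOL5/6 clusters weighted equally, Klk6 was at 4.96 in control vOLCs and Hopx at 3.27 in ectopic vOLCs. Of oligodendrocytes only, MOL2a was 10.2% of control dOLCs and 22.7% of control vOLCs.

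Leaving out 1 library at a time gave 52 to 78 genes higher and 25 to 43 lower against MOL5/6, and 3 to 25 higher and 128 to 277 lower against MOL2b. Without control dOLCs the counts were 78 and 43, and 25 and 277. Without control vOLCs 37 genes were lower than in MOL5/6, and 5 higher and 166 lower than in MOL2b. Without ectopic vOLCs 3 were higher than in MOL2b. Fewer libraries have to pass the threshold in these counts.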

Other observations

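Sex-linked genes were read in MOL2a as a further list. Xist, the RNA that silences an X chromosome, was at 1427, 932 and 1141 CPM in MOL2a cells of control dOLCs, control vOLCs and ectopic vOLCs. The Y-linked genes Ddx3y, Eif2s3y, Kdm5d and Uty had no UMI in the MOL2a or the MOL5/6 cells of any library.

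Spread between MOL2a cells was also high in some genes that were not chosen by the rule for named genes and are named after their values were seen. The variance over the mean of thinned counts was 2.54 for Apoe, a lipid carrier, and 2.42 for the mitochondrial gene mt-Atp6, against a median of 1.03. Klk6 was at 2.41 in control dOLCs, 3.54 in the control vOLCs and 3.30 in ectopic vOLCs. Ptgds was at 8.36, 10.8 and 7.99.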
